A study of Mus musculus with 15 samples.

Results

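Mouse embryonic fibroblasts (MEFs) that had received synthetic MyoD-mRNA together with forskolin, RepSox and CHIR99210 (F/R/C) were compared with untreated MEFs of the same lines. Membership was decided by the sample labels alone, and 6 of the 15 RNA-seq libraries of the series belonged to it, 3 labelled MyoD+F/R/C and 3 labelled MEFs. Both groups were primary fibroblasts of genotype Tg:Pax7-nGFP/C57BL6;DBA2, kept in iMPC medium (a growth medium for induced myogenic progenitor cells). Each MEF line had been derived from a separate mid-gestation embryo without its head and internal organs. Libraries with the same number carried the same line code in their deposited names, so every comparison was made within lines 1, 2 and 3. The MyoD+F/R/C cells were transfected 4 times with a MyoD coding sequence that ended in an alpha globin 3′ untranslated region, in the presence of the interferon decoy B18R, and were sampled on day 10. The MEFs were labelled untreated and day 10, whereas the deposited names marked them as day 0. Time in culture, lipofection, B18R, MyoD and the 3 small molecules therefore could not be told apart in this comparison, and no group received F/R/C without MyoD. The +MyoD group (3 libraries, same lines, no F/R/C) was used to show where the 3 molecules made a difference on top of MyoD and, like the other groups of the series, entered the shared estimate of spread behind the tests.

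MyoD is a basic helix-loop-helix transcription factor that binds E-boxes and can switch fibroblasts to the skeletal muscle programme, in which cycling myoblasts leave the cell cycle, fuse and assemble sarcomeres. Forskolin activates adenylyl cyclase and so raises cyclic AMP, RepSox inhibits the type I TGF-β receptor, and CHIR99210 inhibits GSK3, which releases β-catenin to drive Wnt target genes. Satellite cells, the stem cells of adult muscle, are marked by Pax7 and Myf5, and fibroblasts by receptors such as Pdgfra and Pdgfrb and by their collagens.

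Polyadenylated RNA had been sequenced with a stranded kit, and the summed estimated counts were 36737076, 38780615 and 41885769 in MyoD+F/R/C, against 38458894, 40651433 and 38577344 in MEFs. Transcripts of the mitochondrial genome took 2.98 to 3.10% of the counts in MyoD+F/R/C and 1.31 to 1.42% in MEFs. The 10 most abundant genes took 5.60 to 6.48% and 5.63 to 6.44%. No library stood apart in depth, and no pair of replicates was alike enough to be the same library. Below, expression is given as CPM, a gene's counts relative to the size of its library as scaled by the trimmed mean of M values (TMM), the log2 fold change (log2FC) is MyoD+F/R/C over MEFs within lines with its standard error (SE), and the edgeR adjusted p is the Benjamini-Hochberg adjusted p of edgeR's quasi-likelihood test over all genes tested. A gene was called higher or lower, and is said to rise or fall, where that p was at most 0.05 and the log2FC was beyond 0.5 in size.

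The delivered gene came first. Myod1 (ENSMUSG00000009471.4, chromosome 7 from 46376474 to 46379099, GRCm38) had 105294, 32609 and 35996 estimated counts in MyoD+F/R/C, against 20, 4 and 14 in MEFs. On the scaled level this was 2730, 808 and 787 CPM in MyoD+F/R/C, against 0.556, 0.113 and 0.410 CPM in MEFs (log2FC 11.85, SE 0.43, edgeR adjusted p = 3.3e-10). Line 1 held the most Myod1, and the groups were far apart in every line. Counts of Hba-a2, an alpha globin gene, were also highest in line 1, with 5685, 1029 and 2185 counts in MyoD+F/R/C, against 0, 1 and 1 in MEFs. Endogenous and synthetic Myod1 RNA share the coding sequence and cannot be told apart here. The fibroblast label of the MEFs held: Pdgfra, Pdgfrb, Thy1, Prrx1 and Twist2 were all above 20 CPM in each MEF library.

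Of 19331 genes tested, 5109 (26.4%) were called higher and 4263 (22.1%) lower in MyoD+F/R/C than in MEFs, and the median log2FC over all genes was 0.17. The sign was the same in the 3 lines for 9305 of the 9372 calls, and in 194 calls the groups overlapped. Over all genes tested the groups did not overlap in 6638 that were higher and 5706 that were lower, so most genes showed no overlap. The rises were larger than the falls. Changes beyond 4-fold numbered 2773 up and 658 down, and changes beyond 16-fold numbered 1370 up and 148 down. Among 16016 protein-coding genes 4638 rose and 4124 fell, whereas of 938 long intergenic non-coding RNAs 153 rose and 50 fell. In bulk RNA, fewer cells of a type and less RNA per cell cannot be told apart, and this holds for every value below.

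**Figure D1:**
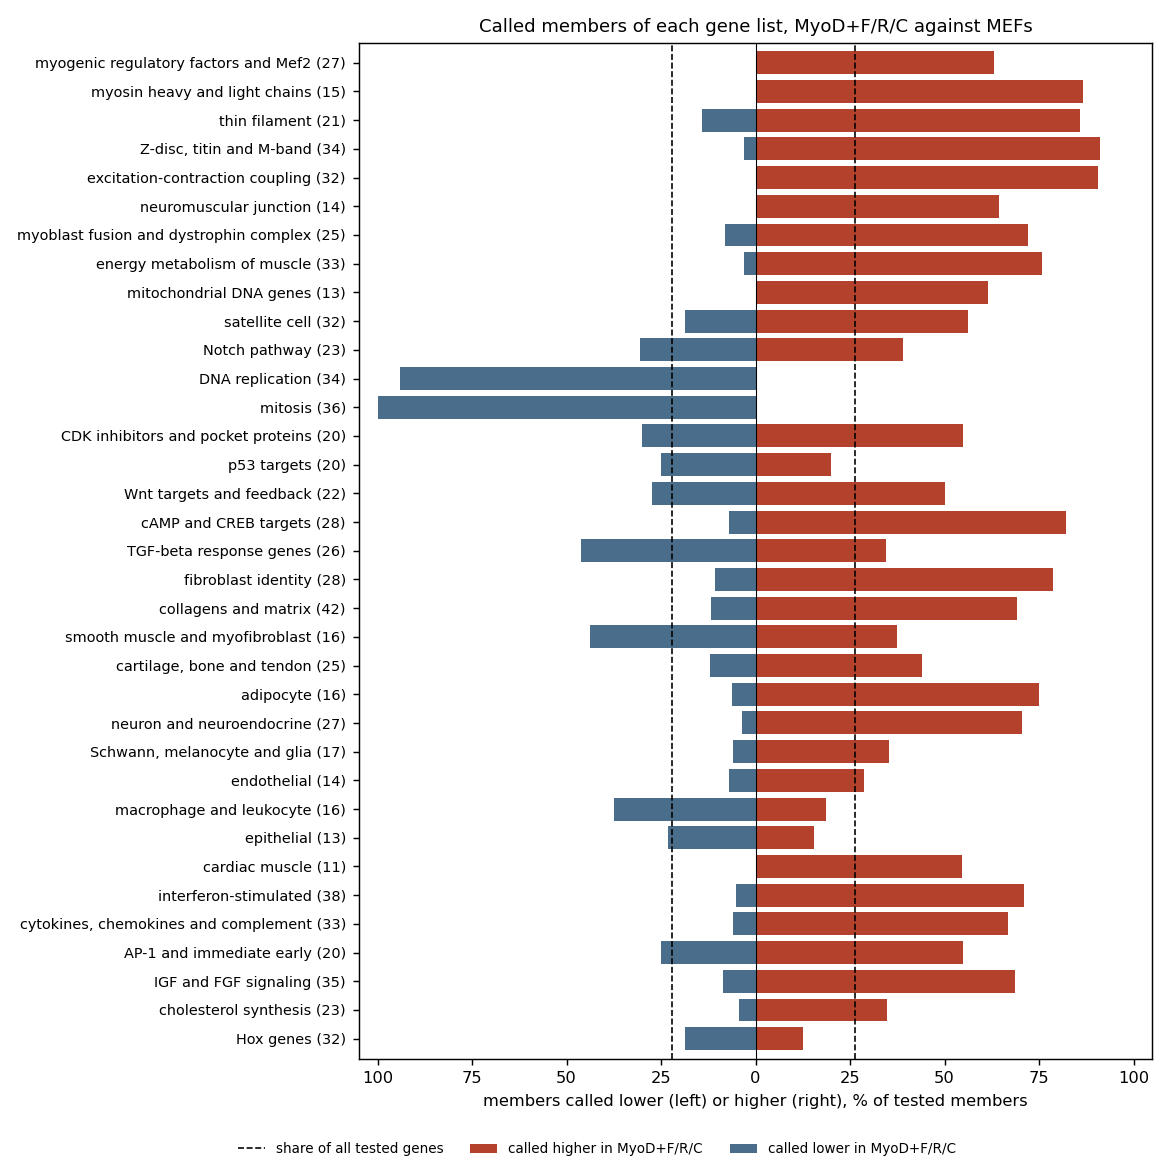
Percent of the tested members of 35 gene lists called higher (bars to the right) or lower (bars to the left) in MyoD+F/R/C than in MEFs, with the number tested in brackets and dashed lines at the shares over all genes, 26.4% and 22.1%. Sarcomere lists run far to the right with few or no lower calls, and the mitosis and DNA replication lists run to the left with none higher.

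The genes with the highest fold changes were mostly muscle genes that were silent in MEFs. Myh4, a fast myosin heavy chain, had 105, 94.6 and 174 CPM in MyoD+F/R/C, against 0 CPM in each of the 3 MEFs. Because MEFs had no counts, the fold is a lower bound, set against 3 counts over the 3 MEF libraries, and Myh4 was at least 4457-fold higher. The same bound was at least 2919-fold for Sypl2 (mitsugumin 29 of the triad), 2668-fold for Xirp1, 2179-fold for the acetylcholine receptor subunit Chrnd and 1412-fold for the thin-filament nucleator Lmod3. Further genes with 0 counts in MEFs were Kcnc4, a potassium channel (at least 1627-fold), Lmod2 (at least 1253-fold), Apobec2 (at least 1171-fold), Myh2 (at least 1065-fold), Atp1b4 (at least 848-fold) and Fgf6, a muscle-restricted growth factor (at least 778-fold). Myh8 and the stretch-responsive gene Ankrd2, with a few counts in MEFs, completed the muscle genes at the top, with log2FC of 13.46, SE 0.36 and 12.69, SE 0.43. Adamdec1 and Kera, which are not known as muscle genes, were among the 15 with the highest fold change and were uneven between lines. Adamdec1, a secreted metalloprotease known from macrophages and gut stroma, had 2.49, 78.6 and 31.1 CPM in MyoD+F/R/C, against 0 CPM in each of the 3 MEFs. Kera, the corneal proteoglycan keratocan, had 43.6, 35.9 and 10.1 CPM in MyoD+F/R/C, against 0 CPM in each of the 3 MEFs.

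The genes with the lowest fold changes were mostly weakly expressed in MEFs. Lce1h, a gene of the epidermal cornified envelope family, had 0 CPM in each of the 3 MyoD+F/R/C libraries, against 20.7, 39.4 and 46.0 CPM in MEFs, at least 1461-fold lower. Fgfbp3, Prl3d2, Wnt7a, 1700012B09Rik, Gm15731, Gm49392, 2610204G07Rik, Gm29630 and Gm15228 were also at 0 counts in MyoD+F/R/C and at 0.723 to 10.2 CPM in MEFs. The bounds were at least 284-fold lower for the placental hormone gene Prl3d2, 146-fold for Fgfbp3 and 102-fold for the Wnt ligand Wnt7a. Serpinb2, an inhibitor of plasminogen activators, was the most abundant of the 15, with 0.622, 0.223 and 0.416 CPM in MyoD+F/R/C, against 104, 194 and 144 CPM in MEFs (log2FC -8.91, SE 1.24, edgeR adjusted p = 3.8e-05). Dynap (log2FC -7.64, SE 1.03), AC124518.1 (log2FC -9.44, SE 1.27), Ush1g (log2FC -8.81, SE 1.58) and Tmem171 (log2FC -8.21, SE 1.30) completed the group. The 15 at each end were chosen among genes without overlap between the groups, so their separation was a condition of the choice.

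By absolute change in CPM the picture was different. The largest gains belonged to H19, Col3a1, mt-Co1, Igf2, Col1a1, Igfbp5, Col18a1, Myh3, Col6a3, Col6a1, mt-Cytb, Col1a2, Col12a1, Acta1 and Crabp1, so that 7 of 15 were collagens and 2 were sarcomere genes. The 15 largest losses included Thbs1, Actb, Actg1, Flna, Tnc, Vim, Fbln2, Hmga2, Hmga1, Myh9, Tagln, Hsp90ab1 and Msn, many of them cytoskeletal. Crabp1, which binds retinoic acid, had 2807, 2056 and 1382 CPM in MyoD+F/R/C, against 401, 285 and 509 CPM in MEFs (log2FC 2.43, SE 0.42, edgeR adjusted p = 2.2e-04).

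Myosin genes rose in 13 of 15 cases and fell in none, with a median log2FC of 8.52, and the remaining ones, Myl2 and Mylk2, were not called. Myh3, the embryonic heavy chain, had 2045, 2089 and 2996 CPM in MyoD+F/R/C, against 1.84, 1.10 and 1.02 CPM in MEFs (log2FC 10.79, SE 0.41, edgeR adjusted p = 5.2e-10). Myh8, the perinatal heavy chain, had 1329, 1678 and 1908 CPM in MyoD+F/R/C, against 0.167, 0.0283 and 0.234 CPM in MEFs (log2FC 13.46, SE 0.36, edgeR adjusted p = 3.5e-11). The lowest MyoD+F/R/C library was above 1000 CPM for each of them, and MEFs stayed below 2 CPM. Per length, the 7 sarcomeric heavy chains summed to 1035, 1097 and 1633 TPM (transcript abundance per length) in MyoD+F/R/C, against 0.991, 1.03 and 1.53 TPM in MEFs. Myh3 and Myh8 made up 53.5% and 36.9% of that TPM in MyoD+F/R/C (mean of 3 libraries). The adult fast chains Myh1, Myh4 and Myh2 made up 3.99%, 2.78% and 0.651%, the slow chain Myh7 2.05% and the cardiac chain Myh6 0.188%. Developmental chains thus led every MyoD+F/R/C library, and adult chains were detected at a small share. Among light chains Myl1 had 611, 606 and 995 CPM in MyoD+F/R/C, against 0.334, 0.0566 and 0.234 CPM in MEFs (log2FC 11.74, SE 0.34), Myl4, the embryonic and atrial form, had a log2FC of 8.52, SE 0.33, and Mylpf, the fast regulatory form, had a log2FC of 9.31, SE 0.39.

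**Figure D2:**
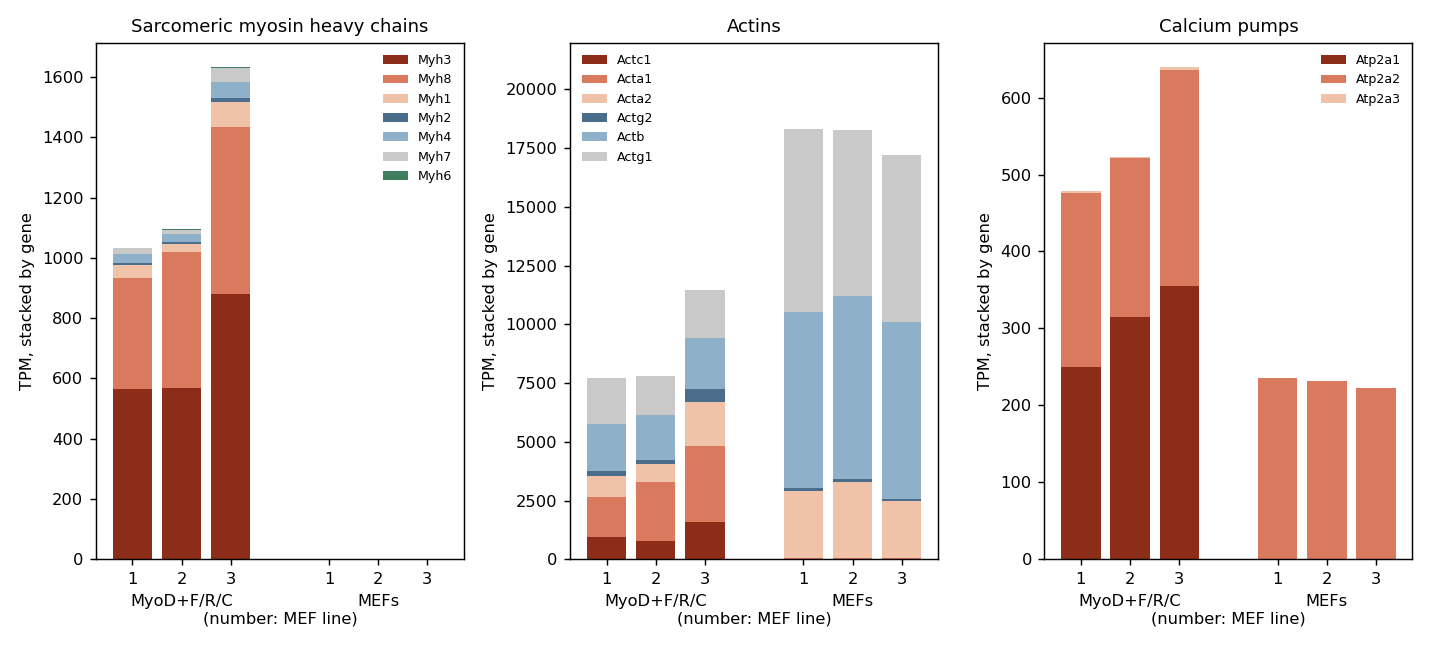
Summed TPM of sarcomeric myosin heavy chains, actins and sarcoplasmic calcium pumps in each of the 3 MyoD+F/R/C libraries and then the 3 MEF libraries, with the genes of a family stacked in colours. Myh3 and Myh8 fill most of the MyoD+F/R/C myosin bars, Acta1 and Actc1 are thick bands only in MyoD+F/R/C, and Atp2a1 is added to a level of Atp2a2 that MEFs also had.

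Of 21 listed thin filament genes 18 rose and 3 fell (median log2FC 7.43). Acta1, skeletal muscle actin, had 1192, 1861 and 2147 CPM in MyoD+F/R/C, against 43.1, 32.9 and 40.7 CPM in MEFs (log2FC 5.43, SE 0.25, edgeR adjusted p = 2.5e-09), and Actc1, the cardiac actin of developing muscle, had 745, 631 and 1152 CPM in MyoD+F/R/C, against 2.95, 0.680 and 1.52 CPM in MEFs (log2FC 8.95, SE 0.43, edgeR adjusted p = 3.4e-09). Neither overlapped between groups. The cytoplasmic actins moved the other way. Actb had 1882, 1638 and 1848 CPM in MyoD+F/R/C, against 7862, 8625 and 8551 CPM in MEFs (log2FC -2.22, SE 0.15, edgeR adjusted p = 7.5e-08), and Actg1 had a log2FC of -2.16, SE 0.15. Together the 6 actins summed to 7699, 7799 and 11460 TPM in MyoD+F/R/C, against 18320, 18270 and 17220 TPM in MEFs. Acta1 and Actc1 made up 27.3% and 12.1% of actin TPM in MyoD+F/R/C, where Actb and Actg1 made up 23.2% and 21.4%. Troponins rose in the slow and the fast forms together. Tnnt1 (slow), Tnnt3 (fast) and Tnnt2 (cardiac and embryonic) held 42%, 32.0% and 26.0% of troponin T TPM in MyoD+F/R/C, and Tnni1 (slow) and Tnni2 (fast) held 61.2% and 38.1% of troponin I TPM. Tnnc2, fast troponin C, had 213, 202 and 288 CPM in MyoD+F/R/C, against 0, 0 and 0.205 CPM in MEFs (log2FC 11.73, SE 0.47). The 3 genes that fell were Tpm1 (log2FC -1.09, SE 0.16), Tpm3 (log2FC -1.70, SE 0.12) and Nebl (log2FC -2.51, SE 0.92), the first pair being tropomyosins that fibroblasts also use. The call of Nebl held in 10 of 17 alternative settings.

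Of 34 listed genes of the Z-disc, titin filament and M-band 31 rose, 1 fell and the rest, Flnc and Mybpc3, were not called (median log2FC 8.25). Titin (Ttn), the elastic filament, had 268, 248 and 373 CPM in MyoD+F/R/C, against 0.695, 0.793 and 0.702 CPM in MEFs (log2FC 8.66, SE 0.35, edgeR adjusted p = 8.0e-10). Actn2 and Actn3, the Z-disc actinins, had log2FC of 9.0, SE 0.31 and 8.49, SE 0.26. Desmin (Des), the muscle intermediate filament, had 1025, 1314 and 1776 CPM in MyoD+F/R/C, against 44.3, 32.5 and 26.1 CPM in MEFs (log2FC 5.27, SE 0.29, edgeR adjusted p = 9.1e-09), and was the most abundant gene of the list. Mybpc1, slow myosin-binding protein C, had 310, 357 and 491 CPM in MyoD+F/R/C, against 0.445, 0 and 0.0293 CPM in MEFs, and Mybpc2, the fast form, had 8.76, 15.2 and 21.9 CPM in MyoD+F/R/C, against 0 CPM in each of the 3 MEFs. The chaperones of myosin folding, Unc45b and Smyd1, rose with the filaments (log2FC 6.23, SE 0.43 and 8.57, SE 0.44). Pdlim5, which also serves non-muscle actin bundles, went against the list with 140.1, 136 and 221 CPM in MyoD+F/R/C, against 605, 671 and 591 CPM in MEFs (log2FC -1.93, SE 0.23, edgeR adjusted p = 1.0e-05).

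**Figure D3:**
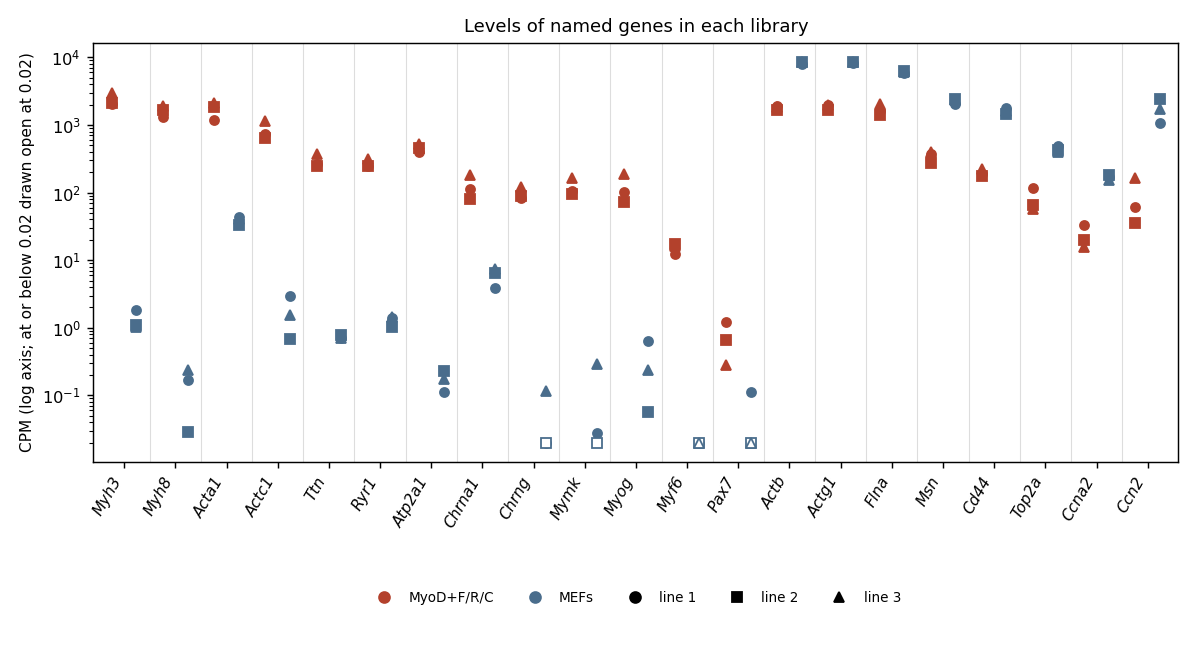
CPM on a log axis of 21 genes in each library, MyoD+F/R/C on the left of each pair and MEFs on the right, with marker shapes for lines 1, 2 and 3 and values at or below 0.02 CPM drawn open at the floor. Sarcomere and junction genes are separated by orders of magnitude, and the cytoskeletal, cell cycle and TGF-β genes are lower in every MyoD+F/R/C library.

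Genes of the non-muscle cytoskeleton were among those that lost the most CPM. They included the actin crosslinker Flna (log2FC -1.83, SE 0.18), non-muscle myosin Myh9 (log2FC -1.75, SE 0.16), moesin Msn (log2FC -2.71, SE 0.20) and vimentin. Vim had 2372, 2430.1 and 1922 CPM in MyoD+F/R/C, against 5312, 6098 and 6125 CPM in MEFs (log2FC -1.39, SE 0.13, edgeR adjusted p = 1.2e-06). Thbs1, the matricellular protein thrombospondin 1, had 1729, 2209.5 and 3271 CPM in MyoD+F/R/C, against 6808, 12128 and 9755 CPM in MEFs (log2FC -1.98, SE 0.24, edgeR adjusted p = 1.3e-05). In all 3 lines each of these genes was lower in MyoD+F/R/C than in any MEF library. The chromatin proteins Hmga2 and Hmga1, which are abundant in proliferating embryonic cells, fell as well (log2FC -3.33, SE 0.21 and -3.07, SE 0.30).

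Muscle forms of transcripts were examined next. The share of each transcript in its gene's TPM was compared for 38473 transcripts of 11052 genes with limma on log2 odds. In MyoD+F/R/C 114 transcripts (0.296%) took a higher and 128 (0.333%) a lower share, by at least 10 percentage points at a limma adjusted p of at most 0.05. Transcripts are named as in GENCODE, and their shares are estimates that the authors' pseudoalignment made from reads that many transcripts of a gene have in common. Without any 1 of the 6 libraries the counts were lower, at 24 to 65 higher and 27 to 71 lower, and were least without line 3 (24 higher) or line 1 (27 lower) of MyoD+F/R/C. A limma fit of the 6 libraries alone called none, with 4785 transcripts at an unadjusted p under 0.05. The switches with the largest changes of share included muscle forms of genes whose summed level was not called, or moved little.

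Flnc encodes filamin C, which crosslinks actin at the Z-disc. Its total was not called (842, 845 and 1236 CPM in MyoD+F/R/C, against 1194, 1670.2 and 1346 CPM in MEFs; without line 3 of MyoD+F/R/C it was called, at a log2FC of -0.82), but its main transcript was exchanged. Flnc-202 held 66.7, 55.2 and 70.8% in MyoD+F/R/C, against 2.71, 3.98 and 5.20% in MEFs (limma adjusted p = 5.2e-04), and Flnc-201 held 30.6, 42.8 and 26.4% in MyoD+F/R/C, against 95.8, 93.9 and 90.7% in MEFs (limma adjusted p = 0.0011). The transcript that prevailed in MyoD+F/R/C lacks an exon of 99 bases, exon 31 of Flnc-201 (chr6:29452799-29452897 on the plus strand, GRCm38). This is the stretch between repeats of the protein that is known as the first hinge and is left out in striated muscle. The exon is shown whole, because it is what the pair differs by.
Flnc-201: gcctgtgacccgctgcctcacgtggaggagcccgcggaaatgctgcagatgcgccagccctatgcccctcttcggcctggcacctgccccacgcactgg

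Tpm1 and Tpm2 encode tropomyosins, the coiled coils along the thin filament. Tpm2-202 held 31.3, 33.9 and 31.1% in MyoD+F/R/C, against 4.25, 5.70 and 6.01% in MEFs (limma adjusted p = 0.0074), and Tpm2-203 held 52.0, 48.4 and 51.7% in MyoD+F/R/C, against 94.6, 92.9 and 91.8% in MEFs (limma adjusted p = 0.002). The pair uses alternative exons of 76 bases in place of exon 6, at chr4:43518644-43518719 on the minus strand for Tpm2-202 and at chr4:43519003-43519078 on the minus strand for Tpm2-203. Tpm1-205 held 39.5, 37.5 and 33.0% in MyoD+F/R/C, against 3.02, 2.91 and 3.03% in MEFs (limma adjusted p = 0.0011). Tpm1-213, the main form in MEFs, held 13.7, 14.1 and 14.2% in MyoD+F/R/C, against 39.9, 41.5 and 41.6% in MEFs, which was not called (limma adjusted p = 0.057). The exon choice was of the same kind, with 76 bases at chr9:67031951-67032026 on the minus strand for Tpm1-205 and at chr9:67032466-67032541 on the minus strand for Tpm1-213. Tpm1-205 also holds a coding exon 9 of 79 bases (chr9:67029664-67029742 on the minus strand) that Tpm1-213 lacks. The Tpm2 pair differs outside exon 6 as well, with 2098 bases in Tpm2-202 and 1164 in Tpm2-203. Capitals mark the bases at which the alternative exons differ, 35 of 76 in Tpm2 and 33 of 76 in Tpm1.
Tpm2-202: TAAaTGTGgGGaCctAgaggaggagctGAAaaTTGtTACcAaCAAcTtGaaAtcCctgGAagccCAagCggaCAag
Tpm2-203: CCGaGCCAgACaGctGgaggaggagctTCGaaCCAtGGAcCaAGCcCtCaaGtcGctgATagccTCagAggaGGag
Tpm1-205: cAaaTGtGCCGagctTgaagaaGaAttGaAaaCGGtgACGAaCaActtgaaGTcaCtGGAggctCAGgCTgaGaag
Tpm1-213: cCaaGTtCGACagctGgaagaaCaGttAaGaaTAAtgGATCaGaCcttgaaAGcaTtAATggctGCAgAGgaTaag

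Itga7 encodes the laminin receptor subunit of muscle. Its total rose, with 173, 231 and 216 CPM in MyoD+F/R/C, against 38.0, 38.1 and 47.5 CPM in MEFs (log2FC 2.31, SE 0.15, edgeR adjusted p = 6.1e-08), while the share of Itga7-202 fell, at 11.5, 10.4 and 12.7% in MyoD+F/R/C, against 72.4, 75.1 and 64.1% in MEFs (limma adjusted p = 0.0027). This transcript carries an exon 5 of 132 bases (chr10:128941445-128941576 on the plus strand) that Itga7-201 replaces by an exon of 120 bases (chr10:128941822-128941941 on the plus strand). These mutually exclusive exons, called X1 and X2 in the literature on this integrin, encode part of the extracellular domain. They are shown whole, because the lengths differ and no base-by-base match was made.
Itga7-202: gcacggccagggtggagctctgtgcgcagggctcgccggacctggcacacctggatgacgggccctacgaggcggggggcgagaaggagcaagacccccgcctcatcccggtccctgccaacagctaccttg
Itga7-201: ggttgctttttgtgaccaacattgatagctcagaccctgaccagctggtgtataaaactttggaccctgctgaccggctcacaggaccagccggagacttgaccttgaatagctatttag

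In the same way Ncam1-201, a form of the neural cell adhesion molecule, held 62.1, 65.6 and 78.8% in MyoD+F/R/C, against 7.90, 12.4 and 14.4% in MEFs (limma adjusted p = 0.0027). Atp2a2-201 of the calcium pump SERCA2 held 40.8, 45.7 and 32.3% in MyoD+F/R/C, against 85.9, 83.8 and 86.0% in MEFs (limma adjusted p = 0.012). Pdlim5-203 held 23.3, 21 and 16.9% in MyoD+F/R/C, against 2.15, 1.80 and 2.55% in MEFs (limma adjusted p = 0.022) while the gene itself fell. The calls of Atp2a2-201 and Pdlim5-203 held in 6 and 3 of 10 alternative settings, and those of Flnc-201, Flnc-202, Tpm1-205, Tpm2-202, Tpm2-203, Itga7-202 and Ncam1-201 in 9 of 10, the exception being a fit of the 6 libraries alone. Some other known muscle forms were not called. Pkm-202, a form of pyruvate kinase, held 29.1, 33.7 and 35.7% in MyoD+F/R/C, against 16, 10.9 and 12.6% in MEFs (limma adjusted p = 0.084), and Capzb-201 of the actin capping protein held 20.1, 28.4 and 21% in MyoD+F/R/C, against 0.511, 10.6 and 3.37% in MEFs (limma adjusted p = 0.06). Ldb3-207 held 59.0, 50.1 and 57.7% in MyoD+F/R/C, against 0, 0 and 8.60% in MEFs (limma adjusted p = 0.13). The groups did not overlap in any of these transcripts, as in others not called, such as Bin1-205 and Tpm3-201. How many of all transcripts had no overlap was not counted. The differences did not pass the test. Ldb3-201 did, with a share near 0 in each MyoD+F/R/C library, against 64.0, 55.7 and 39.3% in MEFs (limma adjusted p = 0.021), a call that held in 2 of 9 alternative settings.

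**Figure D4:**
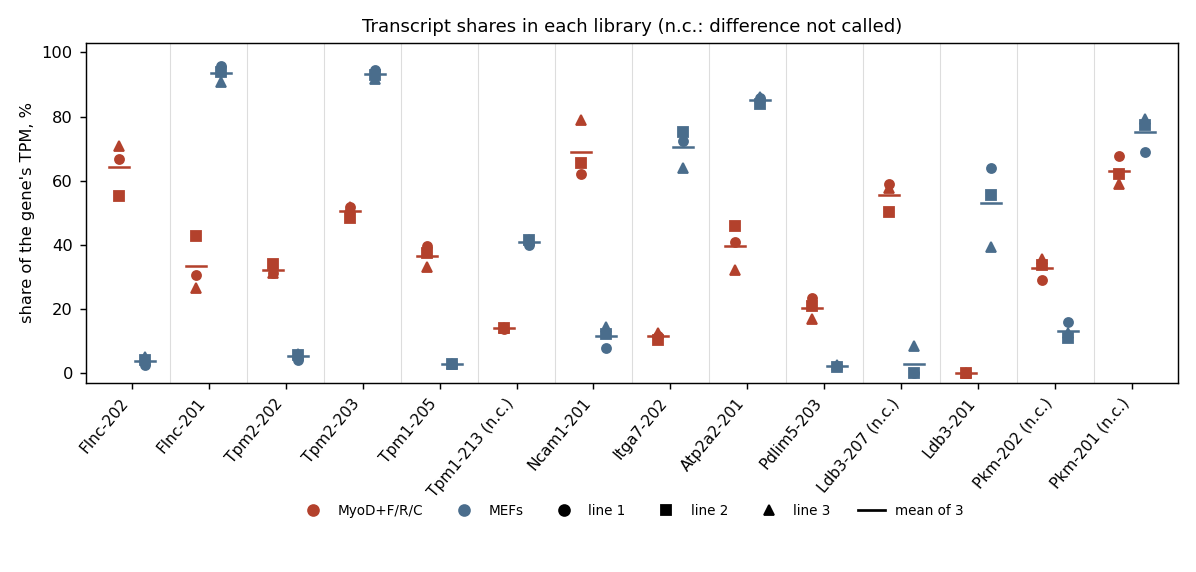
Share (percent of the gene's TPM) of 14 transcripts in each library, MyoD+F/R/C left and MEFs right, with a line at each group's mean and n.c. for shares that were not called. Flnc-202 and Flnc-201 trade places between the groups, and Tpm2-202 and Tpm1-205 stand above 30% only in MyoD+F/R/C.

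Of 32 listed genes of excitation-contraction coupling 29 rose and none fell (median log2FC 7.15, or 6.29 with genes silent in MEFs set at their bounds). Ryr1, the calcium release channel of skeletal muscle, had 249, 247 and 315 CPM in MyoD+F/R/C, against 1.39, 1.02 and 1.43 CPM in MEFs (log2FC 7.72, SE 0.32, edgeR adjusted p = 8.2e-10). Cacna1s, its voltage sensor, had 86.7, 91.3 and 143 CPM in MyoD+F/R/C, against 0.250, 0.170 and 0.0293 CPM in MEFs (log2FC 9.40, SE 0.41), and Stac3, which couples them, had 13.1, 16.4 and 23.2 CPM in MyoD+F/R/C, against 0.918, 1.39 and 0.790 CPM in MEFs (log2FC 4.05, SE 0.38). The calcium-binding proteins of the store, Casq1 (fast) and Casq2 (slow and cardiac), had log2FC of 10.27, SE 0.53 and 10.20, SE 0.38. Trdn, which anchors them, had 19.3, 17.2 and 18.6 CPM in MyoD+F/R/C, against 0 CPM in each of the 3 MEFs, at least 646-fold higher. Of the calcium pumps, Atp2a1 (SERCA1) had 393, 452 and 518 CPM in MyoD+F/R/C, against 0.111, 0.227 and 0.176 CPM in MEFs (log2FC 11.35, SE 0.28, edgeR adjusted p = 2.5e-11), and Atp2a2 was not called. Atp2a1 made up 56.0% of pump TPM in MyoD+F/R/C and 0.031 to 0.068% in MEFs. The pump inhibitor Sln and the calcium buffer Pvalb were silent in MEFs and low in MyoD+F/R/C, at 3.24, 5.25 and 5.21 CPM and 9.57, 10.6 and 4.02 CPM. The members not called were Atp2a2, Mtm1 and the chloride channel gene Clcn1, a gene of mature fibres, at 0.804, 1.24 and 1.12 CPM in MyoD+F/R/C, against 0.612, 0.0849 and 0.644 CPM in MEFs.

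Of 14 listed genes of the neuromuscular junction 9 rose and none fell (median log2FC 5.03). Chrng, the fetal γ subunit of the acetylcholine receptor, had 82.3, 89.1 and 119 CPM in MyoD+F/R/C, against 0, 0 and 0.117 CPM in MEFs (log2FC 11.20, SE 0.46, edgeR adjusted p = 8.1e-10), and Chrna1, the α subunit, had 113, 81.2 and 184 CPM in MyoD+F/R/C, against 3.92, 6.51 and 7.49 CPM in MEFs (log2FC 4.36, SE 0.29, edgeR adjusted p = 5.9e-08). Per length, Chrng, Chrna1, Chrnd and Chrnb1 made up 42%, 25.9%, 20.2% and 11.8% of receptor TPM in MyoD+F/R/C, and Chrne, the adult ε subunit, 0.123%. The agrin receptor complex rose as a set, with Musk at 24.3, 18.9 and 36.2 CPM in MyoD+F/R/C, against 0, 0.0283 and 0 CPM in MEFs (log2FC 10.98, SE 0.54), Lrp4 at a log2FC of 3.75, SE 0.21, Dok7 at 5.71, SE 0.38 and Rapsn at 7.25, SE 0.53. Agrn, its ligand, was not called (log2FC 0.42, SE 0.13).

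The E-box CAGCTG, a palindrome that MyoD binds, was looked for in the 250 bases before each RefSeq start (GRCm38.p6). It was present in 6 of 11 junction promoters with a window (54.5%), against 12.8% of all 27025 windows, 15.7% of those of genes called higher and 9.6% of those of genes called lower. This was the highest share among the muscle lists. The others ranged over 12 of 28 for energy metabolism (42.9%), 7 of 17 for the thin filament (41.2%), 8 of 23 for the Z-disc, titin and M-band (34.8%), 7 of 23 for coupling (30.4%), 4 of 14 for myosins (28.6%), 3 of 16 for myogenic regulators (18.8%), 1 of 13 for fusion and the dystrophin complex (7.7%) and 0 of 20 for satellite cell genes. Chrna1 (chr2:73580339-73580588 on the minus strand) had it at -92 and -44 from the start, and Chrng (chr1:87205561-87205810 on the plus strand) at -155 and -132. The motif is in capitals in both windows, which are shown as examples of receptor subunits that rose. Lists outside muscle ranged from 0 of 28 for DNA replication to 6 of 18 for cartilage, bone and tendon and 5 of 15 for immediate early genes (33.3% each). A second E-box, CAGGTG, ranged over the muscle lists from 0 of 13 for fusion and the dystrophin complex to 6 of 17 for the thin filament (35.3%). It was present in 17.1% of all windows. A match describes these letters and says nothing of binding.
Chrna1: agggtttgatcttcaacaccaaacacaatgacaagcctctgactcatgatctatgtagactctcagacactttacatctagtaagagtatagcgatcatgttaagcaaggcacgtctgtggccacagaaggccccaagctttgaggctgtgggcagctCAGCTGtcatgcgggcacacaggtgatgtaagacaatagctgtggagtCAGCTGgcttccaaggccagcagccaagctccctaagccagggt
Chrng: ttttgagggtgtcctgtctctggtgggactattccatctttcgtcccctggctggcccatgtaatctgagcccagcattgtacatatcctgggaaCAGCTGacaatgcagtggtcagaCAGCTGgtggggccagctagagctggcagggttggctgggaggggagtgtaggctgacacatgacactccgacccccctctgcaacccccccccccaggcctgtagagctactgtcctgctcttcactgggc

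Of 25 listed genes of myoblast fusion and the dystrophin complex 18 rose and 2 fell (median log2FC 1.54). Mymk (myomaker) had 104, 93.7 and 162 CPM in MyoD+F/R/C, against 0.0278, 0 and 0.293 CPM in MEFs (log2FC 10.12, SE 0.54, edgeR adjusted p = 8.1e-09), and Mymx (myomixer) had 12.0, 13.9 and 16.4 CPM in MyoD+F/R/C, against 0 CPM in each of the 3 MEFs, at least 500.2-fold higher. M-cadherin, Cdh15, had 144, 122 and 203 CPM in MyoD+F/R/C, against 0.834, 0.311 and 0.849 CPM in MEFs (log2FC 7.87, SE 0.48), whereas N-cadherin, Cdh2, fell with a log2FC of -1.66, SE 0.22. Within the dystrophin complex the muscle-restricted sarcoglycan Sgca rose (log2FC 6.88, SE 0.64), and Dmd itself had 26.3, 22.7 and 45.6 CPM in MyoD+F/R/C, against 20.1, 20.8 and 17.3 CPM in MEFs (log2FC 0.67, SE 0.26, edgeR adjusted p = 0.047). The call of Dmd held in 9 of 17 alternative settings, and without line 3 of MyoD+F/R/C its log2FC was 0.29. MEFs already held Dag1, Sgcb and Sspn, which rose by log2FC of 0.56, 0.77 and 1.56.

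Of 33 listed genes of muscle energy metabolism 25 rose and 1 fell (median log2FC 2.83). Pygm, muscle glycogen phosphorylase, had 129.7, 164 and 172 CPM in MyoD+F/R/C, against 0.695, 0.906 and 0.761 CPM in MEFs (log2FC 7.61, SE 0.20, edgeR adjusted p = 3.5e-11). Ckm, muscle creatine kinase, had 19.6, 39.5 and 31.5 CPM in MyoD+F/R/C, against 0.0556, 0 and 0.0585 CPM in MEFs (log2FC 9.49, SE 0.38, edgeR adjusted p = 7.2e-10), and Ckb, the brain form that MEFs express, was the gene that fell (log2FC -0.87, SE 0.19). Slc2a4, the insulin-responsive glucose transporter, had a log2FC of 5.59, SE 0.32, Eno3 of 2.88, SE 0.31 and Pfkm of 2.29, SE 0.15. On the lipid side Lpl had 272, 420.4 and 293 CPM in MyoD+F/R/C, against 52.3, 40.1 and 49.4 CPM in MEFs (log2FC 2.76, SE 0.33), and Cd36 and Cpt1b rose with log2FC of 4.44, SE 0.28 and 3.01, SE 0.22. The general glycolytic genes Ldha, Gapdh and Pkm were not called. Mb, myoglobin, stayed low in MyoD+F/R/C at 7.05, 6.22 and 10.4 CPM, against 0, 0 and 0.176 CPM in MEFs.

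Genes of mitochondrial DNA rose in 8 of 13 cases and fell in none (median log2FC 0.83). mt-Co1 had 9152, 10195 and 9190.5 CPM in MyoD+F/R/C, against 3809, 3888 and 4168 CPM in MEFs (log2FC 1.27, SE 0.19, edgeR adjusted p = 7.8e-05). mt-Nd3, mt-Atp6, mt-Atp8, mt-Nd1 and mt-Nd2 were not called, so the rise was uneven between these genes. At a threshold of log2FC over 1, 5 of the 13 were called. These genes make up the mitochondrial share of each library given above.

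Of 27 listed myogenic regulators 17 rose and none fell (median log2FC 1.31). Myog, which starts terminal differentiation, had 103, 73.2 and 189.8 CPM in MyoD+F/R/C, against 0.640, 0.0566 and 0.234 CPM in MEFs (log2FC 8.58, SE 0.56, edgeR adjusted p = 4.7e-08). Mef2c had 129, 95.5 and 173 CPM in MyoD+F/R/C, against 5.56, 2.75 and 4.16 CPM in MEFs (log2FC 5.0, SE 0.22, edgeR adjusted p = 1.4e-09), while Mef2a and Mef2d were not called. Myf6 was silent in MEFs, with 12.4, 17.6 and 16 CPM in MyoD+F/R/C, against 0 CPM in each of the 3 MEFs, at least 541-fold higher. Per length, Myog held 156 ± 84.5 TPM, Myf6 24.5 ± 4.30 TPM and Myf5 1.22 ± 0.560 TPM in MyoD+F/R/C (mean ± SD, n = 3). Upstream factors of the limb and trunk lineage rose in part: Eya4 (log2FC 2.57, SE 0.23) and Lbx1 (log2FC 6.23, SE 0.90) were called, and Pax3, Meox1, Six4 and Eya1 were not. The Id proteins, which sequester the partners of MyoD, did not fall. Id3 had 289.8, 442 and 253 CPM in MyoD+F/R/C, against 193, 147 and 169 CPM in MEFs (log2FC 0.90, SE 0.21, edgeR adjusted p = 0.0024), Id2 and Id4 had log2FC of 0.58, SE 0.18 and 0.58, SE 0.19, with calls that held in 14 and 9 of 17 alternative settings, and Id1 was not called.

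Of 32 listed satellite cell genes 18 rose and 6 fell (median log2FC 1.53), or 56.25% and 18.75%, against 26.4% and 22.1% over all genes. The defining markers were at low levels. Pax7 had 1.22, 0.669 and 0.284 CPM in MyoD+F/R/C, against 0.111, 0 and 0 CPM in MEFs (log2FC 4.14, SE 0.84, edgeR adjusted p = 0.0013), and Myf5 had 0.933, 0.966 and 1.88 CPM in MyoD+F/R/C, against 0.0834, 0.142 and 0 CPM in MEFs (log2FC 4.39, SE 0.94, edgeR adjusted p = 0.0019). The groups did not overlap for either gene, as in most genes tested, and no library passed 2 CPM. Calcr, the calcitonin receptor of quiescent satellite cells, was not called, at 0.804, 0.248 and 0.503 CPM in MyoD+F/R/C, against 0.139, 0.425 and 0.117 CPM in MEFs. Levels were higher for Fgfr4, a receptor of embryonic and regenerating myoblasts, with 7.47, 9.11 and 7.70 CPM in MyoD+F/R/C, against 0.250, 0.623 and 0.673 CPM in MEFs (log2FC 4.00, SE 0.42, edgeR adjusted p = 3.1e-06), and for the secreted antioxidant Gpx3, with 426, 534 and 629.8 CPM in MyoD+F/R/C, against 20.6, 18.3 and 16.2 CPM in MEFs (log2FC 4.83, SE 0.21, edgeR adjusted p = 1.2e-09). Chrdl2, which is enriched in myogenic progenitors, had 0.882, 6.24 and 10.9 CPM in MyoD+F/R/C, against 0 CPM in each of the 3 MEFs, least in line 1. The genes that fell included Met, the HGF receptor (log2FC -2.88, SE 0.15), Sdc3 (log2FC -1.75, SE 0.23), Itgb1 (log2FC -1.59, SE 0.23), Vcam1 (log2FC -0.76, SE 0.26) and Hes1 (log2FC -0.58, SE 0.17). The calls of Vcam1 and Hes1 held in 10 and 12 of 17 alternative settings.

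Of 23 listed Notch pathway genes 9 rose and 7 fell (median log2FC 0.39), or 39.1% and 30.4%, against 26.4% and 22.1% over all genes, with changes in both directions among ligands and among receptors. Among ligands Dll1 had 13.5, 8.77 and 10.6 CPM in MyoD+F/R/C, against 0.167, 0.311 and 0.263 CPM in MEFs (log2FC 5.48, SE 0.51, edgeR adjusted p = 1.1e-06) and Jag2 had a log2FC of 5.32, SE 0.29, whereas Jag1 fell, with 29.8, 18.6 and 13.6 CPM in MyoD+F/R/C, against 57.3, 137 and 121 CPM in MEFs (log2FC -2.47, SE 0.35, edgeR adjusted p = 4.3e-05). Among receptors Notch3 had 165, 145 and 159 CPM in MyoD+F/R/C, against 13.9, 7.53 and 11.1 CPM in MEFs (log2FC 3.85, SE 0.22, edgeR adjusted p = 1.9e-08), Notch2 and Notch4 fell (log2FC -0.69, SE 0.15 and -1.90, SE 0.53) and Notch1 was not called. The targets Hes1 (log2FC -0.58, SE 0.17), Hey1 and Heyl were lower or not called, and Hes6, an opponent of Hes1, rose (log2FC 2.50, SE 0.21). At a log2FC threshold of 1, 3 members were called lower.

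The cell cycle programme was lower. DNA replication genes fell in 32 of 34 cases (median log2FC -1.88) and mitosis genes in 36 of 36 (median log2FC -2.42), and none of either list rose. Mki67 had 78.9, 47.9 and 36.0 CPM in MyoD+F/R/C, against 309, 277 and 241 CPM in MEFs (log2FC -2.40, SE 0.19, edgeR adjusted p = 2.7e-07). Bub1, a spindle checkpoint kinase, had 14.5, 7.90 and 6.12 CPM in MyoD+F/R/C, against 87.5, 81.2 and 79.5 CPM in MEFs (log2FC -3.21, SE 0.25, edgeR adjusted p = 2.3e-07), and Foxm1, the factor that drives mitotic genes, had 32.1, 28.7 and 22.9 CPM in MyoD+F/R/C, against 172, 184 and 186 CPM in MEFs (log2FC -2.71, SE 0.14, edgeR adjusted p = 5.8e-09). Rrm2, the S-phase subunit of ribonucleotide reductase, had a log2FC of -3.10, SE 0.27, Ccna2 of -2.94, SE 0.25 and Mcm5 of -2.45, SE 0.32. None of these overlapped between groups, and line 1 had the highest level of the 3 MyoD+F/R/C libraries for each of them. The replication genes not called were E2f1 and Rfc3.

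Genes that hold the cycle did not all move together. Of 20 listed inhibitors, pocket proteins and D cyclins 11 rose and 6 fell, or 55% and 30%, against 26.4% and 22.1% over all genes. Cdkn2a, the Ink4a and Arf locus, had 221, 241 and 213 CPM in MyoD+F/R/C, against 19.4, 24.8 and 35.9 CPM in MEFs (log2FC 3.08, SE 0.20, edgeR adjusted p = 4.6e-08). Cdkn1c (p57) had 242, 228 and 179 CPM in MyoD+F/R/C, against 38.6, 44.3 and 46.0 CPM in MEFs (log2FC 2.33, SE 0.31, edgeR adjusted p = 2.5e-05), and Gas1, a growth arrest gene, had 372, 503 and 227 CPM in MyoD+F/R/C, against 11.2, 7.08 and 9.04 CPM in MEFs (log2FC 5.30, SE 0.56, edgeR adjusted p = 3.0e-06). Rb1 rose (log2FC 1.15, SE 0.20) and its S-phase relative Rbl1 fell (log2FC -1.69, SE 0.18). The call of Rb1 held in 16 of 17 alternative settings, over which its log2FC was as low as 0.13. Ccnd3, the D cyclin of differentiating muscle, rose (log2FC 1.29, SE 0.15) while Ccnd1 had 353, 173 and 319 CPM in MyoD+F/R/C, against 931, 828 and 904 CPM in MEFs (log2FC -1.73, SE 0.19, edgeR adjusted p = 3.6e-06). Cdkn1a (p21), a target of MyoD and p53, had 467, 479 and 553 CPM in MyoD+F/R/C, against 322, 353 and 401 CPM in MEFs and, at a log2FC of 0.48, was short of the threshold (it was called without line 2 of MyoD+F/R/C or line 3 of MEFs, at log2FC up to 0.55). Other p53 targets gave 4 higher and 5 lower calls of 20, both near or below the shares over all genes.

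Promoters of mitotic genes are known for CCAAT boxes and for the cell cycle homology region TTTGAA. On either strand CCAAT was found in 22 of 29 mitosis promoters (75.9%), against 34.5% of all windows and 37.1% of those of genes called lower. CCAAT was more frequent still in cholesterol synthesis promoters (15 of 16, 93.8%), a list that gave 8 higher calls and 1 lower. TTTGAA was found in 8 of 29 mitosis promoters (27.6%), against 16.3% of all windows and 3 of 9 endothelial promoters (33.3%). Neither motif was therefore particular to the mitosis list. Ccnb2 and Cdc20 carried both and fell, Ccnb2 with 21.3, 16.3 and 12.6 CPM in MyoD+F/R/C, against 51.0, 57.0 and 53.1 CPM in MEFs (log2FC -1.69, SE 0.28) and Cdc20 with 35.6, 26.1 and 27.1 CPM in MyoD+F/R/C, against 129, 151 and 138 CPM in MEFs (log2FC -2.23, SE 0.18). The windows are chr9:70421555-70421804 on the minus strand for Ccnb2 and chr4:118437344-118437593 on the minus strand for Cdc20. Capitals mark CCAAT (at -87, -54 and -21 in Ccnb2 and -53 and -8 in Cdc20) and TTTGAA (at -167 and -18) on either strand.
Ccnb2: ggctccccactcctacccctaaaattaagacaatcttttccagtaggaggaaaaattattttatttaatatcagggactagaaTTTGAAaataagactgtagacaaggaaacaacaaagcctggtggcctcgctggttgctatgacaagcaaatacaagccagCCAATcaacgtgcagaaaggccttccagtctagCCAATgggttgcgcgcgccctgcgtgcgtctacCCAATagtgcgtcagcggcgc
Cdc20: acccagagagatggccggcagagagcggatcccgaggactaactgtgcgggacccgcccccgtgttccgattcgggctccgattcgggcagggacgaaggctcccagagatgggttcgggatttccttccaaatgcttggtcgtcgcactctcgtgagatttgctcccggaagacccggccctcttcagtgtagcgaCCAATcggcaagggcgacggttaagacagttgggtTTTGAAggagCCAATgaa

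Of 22 listed Wnt targets and feedback genes 11 rose and 6 fell (median log2FC 1.24), or 50% and 27.3%, against 26.4% and 22.1% over all genes. The feedback genes rose in every line. Axin2 had 27.4, 29.8 and 20.8 CPM in MyoD+F/R/C, against 1.06, 0.793 and 1.26 CPM in MEFs (log2FC 4.64, SE 0.22, edgeR adjusted p = 2.9e-09), Nkd1 had 44.4, 52.7 and 40.1 CPM in MyoD+F/R/C, against 1.25, 2.41 and 1.70 CPM in MEFs (log2FC 4.70, SE 0.22, edgeR adjusted p = 2.2e-09), and Notum, a secreted lipase that inactivates Wnt proteins, had 96.5, 75.3 and 48.3 CPM in MyoD+F/R/C, against 0.417, 0.0849 and 0.146 CPM in MEFs (log2FC 8.41, SE 0.72, edgeR adjusted p = 5.1e-07). All 3 were also higher than with MyoD alone, where their means were 4.32, 8.41 and 6.35 CPM. Other targets fell: Lgr6 had 2.96, 2.15 and 1.77 CPM in MyoD+F/R/C, against 30.8, 28.5 and 39.9 CPM in MEFs (log2FC -3.86, SE 0.27, edgeR adjusted p = 9.5e-08), Myc had 49.1, 53.2 and 44.8 CPM in MyoD+F/R/C, against 118, 233 and 219 CPM in MEFs (log2FC -1.96, SE 0.26, edgeR adjusted p = 2.5e-05), and Ccnd1 and Lef1 had log2FC of -1.73 and -1.88.

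Of 28 listed cyclic AMP targets 23 rose and 2 fell (median log2FC 1.48). Sik1, a kinase induced by CREB, had 143, 201 and 176 CPM in MyoD+F/R/C, against 17.9, 19.8 and 19.8 CPM in MEFs (log2FC 3.16, SE 0.19, edgeR adjusted p = 2.4e-08). Pde7b and Pde10a, phosphodiesterases that degrade cyclic nucleotides, had log2FC of 3.79, SE 0.23 and 2.35, SE 0.16, and Dio2 had 142, 106 and 77.1 CPM in MyoD+F/R/C, against 7.23, 4.70 and 6.85 CPM in MEFs (log2FC 4.16, SE 0.45, edgeR adjusted p = 3.8e-06). Fos was highest in line 2, with 148, 487 and 204 CPM in MyoD+F/R/C, against 6.53, 6.51 and 7.67 CPM in MEFs (log2FC 5.10, SE 0.52, edgeR adjusted p = 2.4e-06). Ptgs2 went against the list, with 155, 196 and 129.9 CPM in MyoD+F/R/C, against 766, 1684 and 1390.4 CPM in MEFs (log2FC -2.99, SE 0.33, edgeR adjusted p = 4.7e-06), and so did Nr4a2 (log2FC -1.21, SE 0.20), while Nr4a1 was not called and overlapped between groups. Sst, somatostatin, had 3.97, 2.20 and 0.919 CPM in MyoD+F/R/C, against 0 CPM in each of the 3 MEFs. Th, tyrosine hydroxylase, had 17.0, 1.09 and 5.01 CPM in MyoD+F/R/C, against 0.0834, 0.142 and 0.0293 CPM in MEFs (log2FC 6.07, SE 0.84, edgeR adjusted p = 7.9e-05).

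The full cyclic AMP response element TGACGTCA was present in 5 of 23 promoters of the list with a window (21.7%) and in 3 of 19 of the neuron and neuroendocrine list (15.8%), against 1.6% of all windows. Its share was 2.5% among tested genes, with 1.8% among genes called higher, 2.7% among genes called lower and 2.8% among tested genes not called. The neuron share rests on 3 promoters, and the other lists ranged from 0 of 19 for Notch genes to 2 of 14 for p53 targets (14.3%). No result is drawn from it. The cyclic AMP list holds known targets of cyclic AMP and CREB, so a high share there is not a result of these data. The element lay at -45 in Th (chr7:142899996-142900245 on the minus strand), at -48 in Sst (chr16:23890845-23891094 on the minus strand) and at -72 in Chgb (chr2:132781392-132781641 on the plus strand), and is in capitals below.
Th: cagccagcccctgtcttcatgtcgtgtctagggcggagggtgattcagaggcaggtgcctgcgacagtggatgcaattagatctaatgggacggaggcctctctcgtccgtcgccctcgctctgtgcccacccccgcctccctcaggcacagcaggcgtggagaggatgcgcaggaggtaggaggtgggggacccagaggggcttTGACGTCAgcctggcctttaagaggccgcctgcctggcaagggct
Sst: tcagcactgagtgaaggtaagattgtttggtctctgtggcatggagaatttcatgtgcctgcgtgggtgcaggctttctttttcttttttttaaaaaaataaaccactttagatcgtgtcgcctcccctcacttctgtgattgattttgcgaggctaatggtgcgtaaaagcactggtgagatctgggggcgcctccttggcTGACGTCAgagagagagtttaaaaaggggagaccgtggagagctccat
Chgb: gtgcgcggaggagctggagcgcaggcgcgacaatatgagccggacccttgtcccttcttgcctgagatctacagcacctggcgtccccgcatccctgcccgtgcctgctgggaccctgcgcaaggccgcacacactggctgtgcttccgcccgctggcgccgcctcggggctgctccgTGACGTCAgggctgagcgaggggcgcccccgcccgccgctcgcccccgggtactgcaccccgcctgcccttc

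Of 26 listed TGF-β response genes 9 rose and 12 fell (median log2FC -0.53), or 34.6% and 46.2%, against 26.4% and 22.1% over all genes. Both shares were thus above those over all genes. Ccn2, a secreted matricellular protein and a standard readout of the pathway, had 62.1, 35.0 and 165 CPM in MyoD+F/R/C, against 1077, 2434 and 1747 CPM in MEFs (log2FC -4.31, SE 0.58, edgeR adjusted p = 2.9e-05), and the feedback genes Skil, Smad7 and Pmepa1 had log2FC of -2.74, SE 0.25, -2.16, SE 0.24 and -2.12, SE 0.28. Lox, Fn1 and Il11 fell as well, the calls of Fn1 and Il11 holding in 11 and 14 of 17 alternative settings. Members against this direction included Tgfbi, with 488, 392 and 361 CPM in MyoD+F/R/C, against 34.8, 24.0 and 37.3 CPM in MEFs (log2FC 3.71, SE 0.44, edgeR adjusted p = 9.8e-06), the receptor gene Tgfbr2 (log2FC 1.94, SE 0.12), the ligand gene Tgfb2 (log2FC 3.13, SE 0.19), Postn (log2FC 3.20, SE 0.53) and Col1a1 (log2FC 1.93, SE 0.27).

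**Figure D5:**
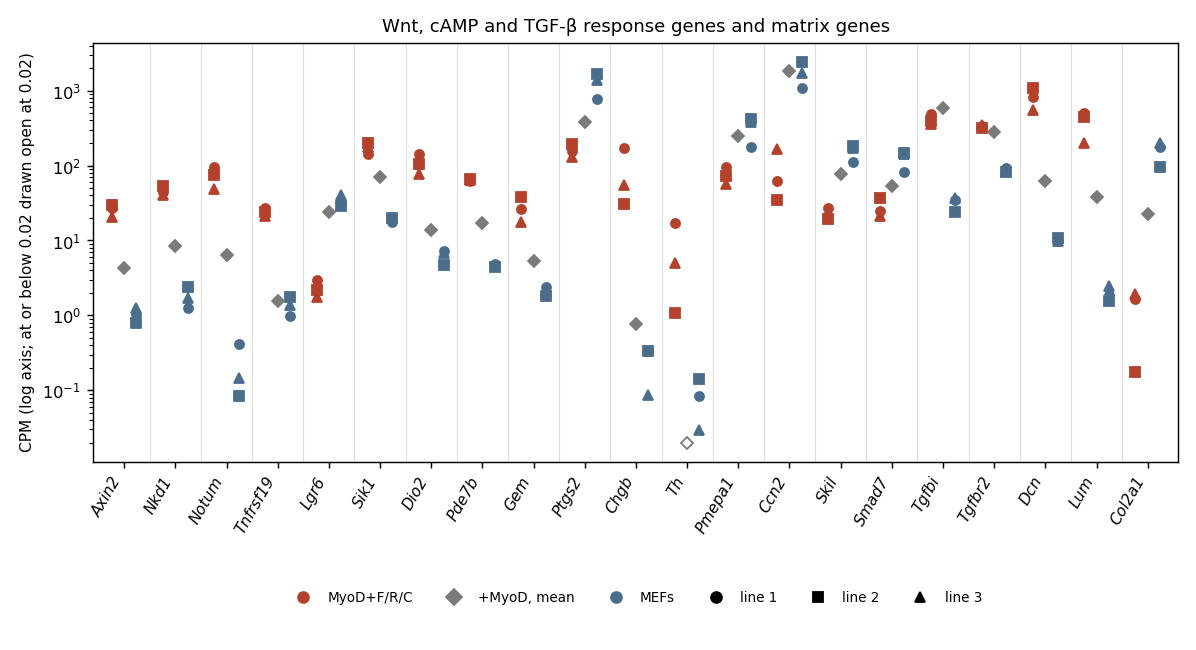
CPM on a log axis of 21 Wnt, cyclic AMP, TGF-β and matrix genes in each library, MyoD+F/R/C left and MEFs right, with a diamond for the mean of the 3 +MyoD libraries. Axin2, Nkd1 and Notum stand above the diamond in MyoD+F/R/C, and Ccn2 stands far below both the diamond and the MEFs.

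Fibroblast identity genes did not recede: 22 of 28 rose and 3 fell (median log2FC 1.61), and their summed TPM was 10881, 11769 and 9156 in MyoD+F/R/C, against 10556, 10374 and 10783 in MEFs. Pdgfra had 733, 904 and 559 CPM in MyoD+F/R/C, against 133, 67.4 and 108 CPM in MEFs (log2FC 2.83, SE 0.45, edgeR adjusted p = 1.1e-04), and Pdgfrb had 402, 507 and 304 CPM in MyoD+F/R/C, against 34.0, 39.0 and 35.8 CPM in MEFs (log2FC 3.45, SE 0.14, edgeR adjusted p = 8.7e-10). Prrx1, a factor of limb mesenchyme, was not called (525, 459 and 443 CPM in MyoD+F/R/C, against 505, 398 and 478 CPM in MEFs). The 3 that fell were Vim, Cd44 and Fbln2. Cd44, the hyaluronan receptor, had 188, 174 and 222 CPM in MyoD+F/R/C, against 1812, 1438 and 1627 CPM in MEFs (log2FC -3.05, SE 0.23, edgeR adjusted p = 1.9e-07), and Fbln2, a basement membrane protein, had 249, 392 and 176 CPM in MyoD+F/R/C, against 2296, 3039.8 and 3144 CPM in MEFs (log2FC -3.43, SE 0.27, edgeR adjusted p = 2.9e-07). How these levels were divided among the cells of a library was not measured.

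Of 42 collagen and matrix genes 29 rose and 5 fell (median log2FC 1.29). Col3a1 had 6093, 7074 and 4622 CPM in MyoD+F/R/C, against 304, 232 and 187 CPM in MEFs (log2FC 4.60, SE 0.35, edgeR adjusted p = 1.9e-07). Fibrillar and type VI collagens summed to 8799, 10230 and 6638 TPM in MyoD+F/R/C, against 1461, 1634 and 1227 TPM in MEFs, and Col3a1 made up 33.6% of this in MyoD+F/R/C and 5.99 to 7.68% in MEFs. Small leucine-rich proteoglycans of the list rose: Dcn (decorin) had 829, 1078 and 552 CPM in MyoD+F/R/C, against 9.84, 10.7 and 9.75 CPM in MEFs (log2FC 6.34, SE 0.46, edgeR adjusted p = 1.2e-07), and Lum (lumican) had 502, 442 and 203 CPM in MyoD+F/R/C, against 1.89, 1.56 and 2.46 CPM in MEFs (log2FC 7.59, SE 0.69, edgeR adjusted p = 8.9e-07), with keratocan as above. Line 3 had the least of Col3a1, Dcn, Lum and Kera among the MyoD+F/R/C libraries. Dpt, dermatopontin, of the fibroblast identity list, was even, with 42.7, 47.2 and 45.1 CPM in MyoD+F/R/C, against 0.0834, 0 and 0.146 CPM in MEFs (log2FC 9.21, SE 0.72, edgeR adjusted p = 2.5e-07). The cartilage collagen Col2a1, present in MEFs, had 1.66, 0.173 and 1.90 CPM in MyoD+F/R/C, against 179, 94.9 and 199.6 CPM in MEFs (log2FC -7.07, SE 0.57, edgeR adjusted p = 3.3e-07), and Acan fell too (log2FC -3.34, SE 0.51), within a cartilage, bone and tendon list of 25 in which 11 rose and 3 fell. The shares of that list were 44% and 12%, against 26.4% and 22.1% over all genes.

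Smooth muscle and myofibroblast genes gave 6 higher and 7 lower calls of 16 (median log2FC -0.62), or 37.5% and 43.75%, against 26.4% and 22.1% over all genes. Their summed TPM was 2297, 1818 and 4495 in MyoD+F/R/C, against 7618, 8595 and 7069 in MEFs. Acta2 had 739, 606 and 1472 CPM in MyoD+F/R/C, against 2415, 3008 and 2277 CPM in MEFs (log2FC -1.49, SE 0.34, edgeR adjusted p = 0.002), and Tagln had a log2FC of -2.91, SE 0.36. Myh11 moved the other way, with 143, 119 and 320.5 CPM in MyoD+F/R/C, against 31.5, 32.9 and 21.7 CPM in MEFs (log2FC 2.66, SE 0.36, edgeR adjusted p = 2.7e-05). Line 3 stood above lines 1 and 2 of MyoD+F/R/C for each of these genes, as it did for Acta1 and Myh3.

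Markers of other cell types were examined in the same way. Neuron and neuroendocrine genes rose in 19 of 27 cases and fell in 1 (median log2FC 3.18), and their summed TPM was 1024, 323 and 559 in MyoD+F/R/C, against 344, 393 and 378 in MEFs. Line 1 had the highest sum. Chgb, a secretory granule protein, had 172, 31.0 and 54.3 CPM in MyoD+F/R/C, against 0.334, 0.340 and 0.0878 CPM in MEFs (log2FC 8.19, SE 0.73, edgeR adjusted p = 7.0e-07), and Prph, the intermediate filament of peripheral neurons, had 96.8, 21.2 and 25.8 CPM in MyoD+F/R/C, against 0.473, 1.02 and 0.732 CPM in MEFs (log2FC 5.77, SE 0.61, edgeR adjusted p = 3.0e-06). Dbh, which makes noradrenaline, had 56.1, 13.7 and 14.6 CPM in MyoD+F/R/C, against 3.03, 1.67 and 1.81 CPM in MEFs (log2FC 3.49, SE 0.42, edgeR adjusted p = 1.0e-05). The defining markers Snap25 and Rbfox3 were at 25, 5.10 and 9.08 CPM and 1.58, 0.371 and 0.656 CPM in MyoD+F/R/C, against 0.417, 0.396 and 0.527 CPM and 0, 0 and 0 CPM in MEFs. Neurofilaments Nefl and Nefm, Stmn2, Gap43 and Map2, which MEFs expressed, were not called. The part of neural cells in the other results was not tested.

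Adipocyte genes rose in 12 of 16 cases and fell in 1 (median log2FC 2.37, or 2.20 at bounds), with a summed TPM of 367, 464 and 447 in MyoD+F/R/C, against 231, 235 and 228 in MEFs. Pparg had 12.5, 24.5 and 18.3 CPM in MyoD+F/R/C, against 6.28, 6.54 and 6.56 CPM in MEFs (log2FC 1.49, SE 0.21, edgeR adjusted p = 3.7e-05), and Fabp4 had 17.9, 25.2 and 38.9 CPM in MyoD+F/R/C, against 0.695, 0.878 and 0.995 CPM in MEFs (log2FC 4.96, SE 0.65, edgeR adjusted p = 2.1e-05). Adipoq and Cfd, silent in MEFs, stayed below 4 CPM in MyoD+F/R/C, and Fasn fell (log2FC -1.30, SE 0.11). Macrophage genes gave 3 higher and 6 lower calls of 16 (18.8% and 37.5%, against 26.4% and 22.1% over all genes). Their summed TPM was 46.5, 34.5 and 61.3 in MyoD+F/R/C, against 56.0, 36.4 and 37.9 in MEFs. Their defining markers were near 0 in MyoD+F/R/C: Ptprc had 0.156, 0.124 and 0 CPM in MyoD+F/R/C, against 0.806, 0.736 and 0.790 CPM in MEFs (a call that held in 9 of 17 alternative settings), Csf1r had 0.882, 0.545 and 0.612 CPM in MyoD+F/R/C, against 7.31, 3.28 and 3.54 CPM in MEFs, and Adgre1 had 0.493, 0 and 0 CPM in MyoD+F/R/C, against 2.14, 1.47 and 1.61 CPM in MEFs. The macrophage count rested on single libraries: without line 3 of MyoD+F/R/C it was 1 higher and 3 lower, without line 2 of MyoD+F/R/C 2 were lower, and without line 2 or line 3 of MEFs 3 were lower. Endothelial genes gave 4 higher and 1 lower call of 14 (28.6% and 7.14%), and the defining markers Pecam1 and Cdh5 were not called and stayed below 4 CPM. Epithelial genes gave 2 higher and 3 lower calls of 13 (15.4% and 23.1%). The simple keratins Krt18, with 15.2, 8.74 and 21.1 CPM in MyoD+F/R/C, against 72.5, 65.6 and 60.8 CPM in MEFs (log2FC -2.23, SE 0.38), and Krt19 (log2FC -2.88, SE 0.23) were the main members of that list, and Epcam and Cdh1 were below 2 CPM in all 6 libraries. Schwann, melanocyte and glial genes gave 6 higher and 1 lower call of 17 (35.3% and 5.88%), with Sox10 at 2.02, 0.966 and 1.79 CPM in MyoD+F/R/C, against 0.973, 1.47 and 2.11 CPM in MEFs, and Tyr near 0 in both groups. Cardiac genes rose in 6 of 11 cases, without Nppa, which was below 1 CPM in all 6 libraries, and Nkx2-5 did not pass the count filter.

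Interferon-stimulated genes rose in 27 of 38 cases and fell in 2 (median log2FC 2.25), but at low levels. Ifi27 had 31.0, 31.0 and 37.7 CPM in MyoD+F/R/C, against 3.09, 3.06 and 3.19 CPM in MEFs (log2FC 3.42, SE 0.34, edgeR adjusted p = 1.9e-06), Oasl2 had 10.5, 6.54 and 13.6 CPM in MyoD+F/R/C, against 0.667, 0.595 and 0.380 CPM in MEFs (log2FC 4.20, SE 0.62, edgeR adjusted p = 6.6e-05), and Irf1 had 29.7, 39.9 and 31.5 CPM in MyoD+F/R/C, against 8.68, 4.56 and 5.38 CPM in MEFs (log2FC 2.44, SE 0.24, edgeR adjusted p = 1.4e-06). The effectors Mx1, Mx2 and Rsad2 stayed below 2 CPM, and Ifit2 and B2m fell (log2FC -0.71, SE 0.21 and -0.59, SE 0.14, calls that held in 13 and 15 of 17 alternative settings). Tap1, the antigen peptide transporter, was at 54.7, 49.4 and 63.3 CPM in MyoD+F/R/C, against 9.82, 3.94 and 5.97 CPM in MEFs (log2FC 3.10, SE 0.26). Cytokine, chemokine and complement genes rose in 22 of 33 cases and fell in 2 (median log2FC 2.52). Serping1, the C1 inhibitor, had 174, 406 and 273 CPM in MyoD+F/R/C, against 2.81, 1.30 and 0.819 CPM in MEFs (log2FC 7.27, SE 0.62, edgeR adjusted p = 5.1e-07), and C3 had 35.9, 43.1 and 65.1 CPM in MyoD+F/R/C, against 0.361, 0.481 and 0.439 CPM in MEFs (log2FC 6.82, SE 0.83, edgeR adjusted p = 1.1e-05). Ccl11, eotaxin, had 103, 88.5 and 56.6 CPM in MyoD+F/R/C, against 0.111, 0.0566 and 0 CPM in MEFs (log2FC 10.44, SE 0.65, edgeR adjusted p = 3.4e-08). The genes that fell were Csf1 (log2FC -1.69, SE 0.23) and Il11 (log2FC -1.94, SE 0.66).

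Immediate early genes gave 11 higher and 5 lower calls of 20 (median log2FC 0.74), or 55% and 25%, against 26.4% and 22.1% over all genes. Line 2 of MyoD+F/R/C was the highest library for Fos, Fosb, Jun, Junb, Jund, Egr1 and Zfp36. Egr1 had 289.9, 793 and 428 CPM in MyoD+F/R/C, against 49.7, 60.4 and 48.6 CPM in MEFs (log2FC 3.09, SE 0.28, edgeR adjusted p = 8.1e-07), and Jun had 244, 555 and 233 CPM in MyoD+F/R/C, against 174, 157 and 154 CPM in MEFs (log2FC 0.96, SE 0.21, edgeR adjusted p = 0.0013). Fosl1 and Klf6 fell (log2FC -1.84, SE 0.38 and -1.67, SE 0.16).

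A list of insulin-like growth factor and FGF signalling genes, which also holds imprinted genes, gave 24 higher and 3 lower calls of 35 (median log2FC 1.46), among them some of the most abundant genes that rose. H19, the imprinted RNA beside Igf2, had 6312, 6838 and 6908 CPM in MyoD+F/R/C, against 366, 576 and 319 CPM in MEFs (log2FC 4.03, SE 0.49, edgeR adjusted p = 1.0e-05), and Igf2 had 5758, 6892 and 6536 CPM in MyoD+F/R/C, against 1139, 1835 and 1372 CPM in MEFs (log2FC 2.18, SE 0.43, edgeR adjusted p = 6.9e-04). Igfbp5, the binding protein of differentiating myoblasts, had 3027, 3143 and 2524 CPM in MyoD+F/R/C, against 148, 77.3 and 96.1 CPM in MEFs (log2FC 4.79, SE 0.33, edgeR adjusted p = 7.2e-08). Igf1 had 70.7, 66.0 and 54.6 CPM in MyoD+F/R/C, against 2.75, 1.90 and 3.57 CPM in MEFs (log2FC 4.56, SE 0.39), and Meg3, Dlk1, Mest and Peg3 had log2FC of 2.38, 2.75, 2.03 and 1.62. Fgf2 fell, with 33.0, 43.5 and 35.5 CPM in MyoD+F/R/C, against 74.1, 165 and 141 CPM in MEFs (log2FC -1.74, SE 0.21, edgeR adjusted p = 1.2e-05), and so did the FGF target Etv4 (log2FC -2.24, SE 0.17), while the feedback genes Spry2, Spry4 and Dusp6 were not called.

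Some groups moved little. Hox genes, which record position along the body, gave 4 higher (2 without line 3 of MyoD+F/R/C or line 2 of MEFs) and 6 lower calls of 32 (median log2FC -0.11). These were 12.5% and 18.75%, both below the shares over all genes. Cholesterol synthesis genes gave 8 higher calls (5 without line 1 or line 3 of MyoD+F/R/C) and 1 lower of 23 (median log2FC 0.51), or 34.8% and 4.35%.

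In the direct comparison of the groups with and without the 3 molecules, 2241 genes (11.6%) were called higher and 1713 (8.86%) lower in MyoD+F/R/C. This contrast tests which of the changes above differed from those with MyoD alone. Myod1 itself was lower with the molecules, at 1442 ± 1116 CPM in MyoD+F/R/C and 2272 ± 1048 CPM in +MyoD (mean ± SD, n = 3 each, log2FC -0.82, SE 0.26, edgeR adjusted p = 0.032). Sarcomere genes were mostly higher with them. Of the 34 Z-disc, titin and M-band genes 28 were called higher and 1 lower, of 32 coupling genes 23 and 1, and of 21 thin filament genes 16 and 1. Myh3 was at 2377 ± 537 CPM in MyoD+F/R/C and 466 ± 195 CPM in +MyoD (log2FC 2.38, SE 0.28, edgeR adjusted p = 5.0e-05), and Myog at 122 ± 60.7 CPM and 27.7 ± 9.03 CPM (log2FC 2.13, SE 0.37, edgeR adjusted p = 0.001). Pax7, Myf5 and Kera, at 0 CPM in the 3 +MyoD libraries, were called higher as well. Mymx, Mb, Tcap and Myh7 were not called in this contrast, with log2FC of 0.50, -0.99, 0.62 and 0.09.

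Cell cycle genes were lower than in MEFs in both groups, and higher in MyoD+F/R/C than in +MyoD for 30 of 36 mitosis genes and 22 of 34 replication genes. Top2a, the mitotic topoisomerase, was at 79.6 ± 32.1 CPM in MyoD+F/R/C, 34.1 ± 3.16 CPM in +MyoD and 438 ± 44.8 CPM in MEFs. Of 26 TGF-β response genes 19 were lower and 3 higher with the molecules. Ccn2 was at 87.4 ± 68.7 CPM in MyoD+F/R/C and 1813 ± 1263 CPM in +MyoD (log2FC -4.40, SE 0.59, edgeR adjusted p = 1.5e-04). Of 42 collagen and matrix genes 19 were lower and 9 higher: Col1a1 and Fn1 were at 6068 ± 1723 and 2875 ± 239.7 CPM in MyoD+F/R/C, against 11743 ± 9408 and 14483 ± 6760.2 CPM in +MyoD, whereas Dcn was at 820 ± 263 CPM, against 62.2 ± 38.2 CPM. Of 27 neuron and neuroendocrine genes 19 were higher and none lower with the molecules, and Chgb was at 85.8 ± 75.6 CPM in MyoD+F/R/C and 0.768 ± 0.697 CPM in +MyoD. Of 28 cyclic AMP genes 14 were higher and 3 lower, and of 22 Wnt genes 8 and 4. Of 38 interferon-stimulated genes 9 were higher and 2 lower.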

How the data were processed

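Polyadenylated RNA of 15 cultures (5 groups, MEF lines 1 to 3 in each) was sequenced. The submitters' processing notes name bcl2fastq 2.20, fastp 0.20.0 and kallisto 0.46.1 with GRCm38.p6. The deposited tables give each transcript's estimated count and TPM, both made by the authors with kallisto, beside its length. Of the deposited lengths only the effective length was used, for length-scaled counts. The authors' estimated counts assign shared reads by likelihood, so near-identical genes and transcripts are uncertain, and TPM is per length and sums to the same total in each library.

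Of 121843 transcripts, 121104 matched GENCODE M21 (not the release that the study's methods name) and were summed to 35675 genes, and the other 739 held 0.24 to 0.33% of counts. The estimated counts were rounded to whole numbers, filtered with filterByExpr (minimum count 10, minimum total 15), scaled with TMM, and tested with edgeR 4.0.16 (quasi-likelihood) in R 4.3.3, with line and condition as factors and all 15 libraries sharing the estimate of spread. The study's methods name DESeq2, and DESeq2 1.42.0 was an alternative. Same-numbered libraries carried the same line code in their deposited names, and the study's methods treat each embryo as a separate line. Their deviations from the group means correlated at a mean r of 0.0737 over 30 pairs (0.0342 to 0.0606 for the 3 pairs of MyoD+F/R/C and MEFs). The mean over 60 pairs of different lines, -0.0368, follows from it, because deviations sum to 0 within a group. Each of 15 libraries had its highest mean r with the libraries of its own line in the other groups. Replicates are separate lines. With line as a factor, p-values rest on the spread left once differences between lines are removed, not on the spread between embryos.

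Transcript shares (0.1 TPM added, gene of at least 1 TPM in both groups, share of at least 5% in either) were tested with limma 3.58.1 as log2 odds. Folds against a group at 0 counts were set against 3 counts over that group. Promoter windows came from RefSeq, and exons from GENCODE coordinates in GRCm38. Values were handled with numpy 2.4.6 and pandas 2.3.3 and drawn with matplotlib 3.10.9. Counts were also simulated with 200 genes changed and no difference between lines. Of the 18539 genes tested there, 41 of 97 2-fold and 61 of 99 4-fold changes and 9 of 18343 unchanged genes were called.

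The genes named were Myod1, the 15 called genes at each end of log2FC (groups without overlap, and 1 CPM or more on average in the group with more) and of the change in CPM, members of gene lists, and transcripts with the largest change of share or known muscle exons. Some genes that the rule names are not reported here. The gene lists and members were chosen with earlier results of these data known. Alternatives were no block, 6 libraries alone, other scalings and filters, DESeq2, length-scaled counts, no mitochondrial DNA genes, log2FC over 1, and leaving out each library.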

Additional observations from a re-analysis of the deposited data

How the results depend on the processing

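Without the pairing of libraries by line (no replicate block), 5142 genes were called higher and 4183 lower in MyoD+F/R/C than in MEFs, 132 transcripts took a higher and 126 a lower share, and 2114 genes were called higher and 1621 lower against +MyoD. The blocked fit therefore moved no count by over 1.5 times, and 9152 of the 9372 calls (97.7%) were shared. Over the settings other than the fold threshold, the counts lay between 4403 and 5610 higher and between 3690 and 4394 lower. Upper quartile scaling, at 5610 and 3690, moved the median log2FC of all genes from 0.17 to 0.288. A threshold of log2FC over 1 gave 4100 higher and 2380 lower. Leaving out 1 library at a time gave 4403 to 4778 higher and 3924 to 4313 lower against MEFs, and 1793 to 2260 higher and 1278 to 1874 lower against +MyoD. Transcript shares were less stable. An offset of 1 TPM gave 340 higher and 485 lower, genes of at least 5 TPM gave 75 lower, and a limma fit of the 6 libraries with the replicate block gave 0 and 0, with a smallest adjusted p of 0.211 and 4785 transcripts at an unadjusted p under 0.05. Without 1 library the counts were 24 to 65 higher and 27 to 71 lower. The comparison with +MyoD without the block or without 1 library was chosen after seeing the data.

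Of 292 genes named, 242 were called, 219 of them in each of the 17 alternative settings, and none reversed. Leaving out 1 library ended the call of 14. Besides those given with the values, they were Lef1 (edgeR adjusted p up to 0.0712), Notch4 (0.0585), Myh6 (0.0576) and Gm49392 (0.0598), each without line 3 of MEFs. Another 14, not called over all libraries, were called without 1 library: Adgre1, Cdh1, Flnc, Gapdh, Rfc3 and Tyr without a MyoD+F/R/C library, Agrn, Cdh5, Heyl, Id1, mt-Nd1 and mt-Nd2 without a MEF library, and Cdkn1a and Chrnb1 without either. Counts over lists moved by over 1.5 times in 19 of 850 comparisons, among them cholesterol synthesis (13 higher) and p53 targets (7 higher, 3 lower) under upper quartile scaling and collagens and matrix (3 lower) at log2FC over 1. Depth and 3 lines a group limit what a missing call shows. In the simulation 41 of 97 2-fold changes were called. It changed 200 genes, far fewer than the 9372 called here, and held no differences between lines. Its share of calls therefore need not hold for these data.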
